A study of Danio rerio with 12 samples.

Results

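The genes described here encode the proteins of the cytosolic ribosome, in zebrafish embryos that lack one of 3 factors of RNA processing. A gene belonged to the set when its symbol began with rpl or rps and a digit, or was rplp0, rplp1, rplp2, rplp2l or rpsa; kinases named rps6k were left out. The splicing tables held 74 such gene identifiers of 14156 in all. The skipped-exon tables held 73 of them under 71 symbols, 41 for the large and 32 for the small subunit, with 204 of 42171 listed exons. Symbols written in capitals (3 of them) were not taken in, rpl11 was not analysed here, and 2 symbols, rps27.2 and rpl37, were each carried by a pair of identifiers on different chromosomes.

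The study used mutants recovered in a screen for defects of early T cell development and asked what the loss of each gene does to the transcriptome. RNA came from whole embryos in 12 libraries, 3 in each of 4 groups. The groups were wild-type controls, snapc3-/- embryos, lsm8-/- embryos and tnpo3-/- embryos. The snapc3-/- libraries were of mixed background A, the lsm8-/- libraries of B and the tnpo3-/- libraries of C, while the 3 controls were 1 of each background, so mutation and background cannot be told apart. No source used here gives the stage, the lesions or any pooling of embryos, and nothing says that replicates came from separate clutches, so p-values measure the spread between these libraries. Of the mutated genes, tnpo3 was counted at 27.0, 24.4 and 27.6 junction reads per 1000000 in controls and at 8.76, 4.86 and 7.83 in tnpo3-/- embryos (log2 fold change −1.92, adjusted p = 0.00466, limma). The authors' deposited table gives snapc3 −1.39 in snapc3-/- embryos (adjusted p = 0.0298). It gives lsm8 2.87 in lsm8-/- embryos (adjusted p = 0.000602) and 2.19 in snapc3-/- embryos (adjusted p = 0.00213), and with the lesion unknown that level does not check the label.

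A cytosolic ribosome joins a large subunit, built from rpl proteins and the rplp stalk proteins that recruit elongation factors, to a small subunit built from rps proteins. Most of these genes are short, made of small exons and transcribed at very high rates, and their products are needed in matched amounts. The 3 mutated genes act at different steps of RNA processing: snapc3 encodes part of the factor with which transcription of small nuclear RNA genes starts, lsm8 a member of the ring that binds U6 small nuclear RNA, and tnpo3 the receptor that imports serine- and arginine-rich splicing factors into the nucleus.

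The readouts were taken from tables that list, for every exon able to be skipped, the reads across junctions that include it and those that skip it. The first was the sum of junction reads over the listed exons of a gene per 1000000 such reads of that mutant's table, written below as RPM. Exons can share junction reads, so a read can be counted at several exons. This holds for the gene sums and for all table totals and shares made from them. The second was the share of skipping, in percent, after correction for the length of the 2 forms. Each table listed its own exons, so a gene's control level differs between tables and levels are compared only within one. The tables held 12772103 to 14288586 reads per control library and 13039814 to 15025631 per snapc3-/- library. For lsm8, controls had 20118005 to 22999590 reads and mutants 14668691 to 18478988, with 16340782 to 18650509 reads per control and 15711487 to 18300285 per mutant library for tnpo3. Values of a group's libraries follow the order inside the deposited cells, called positions 1 to 3, which no source matches to replicate numbers. The same 3 control libraries stand in all tables, so the 3 comparisons share them. Tests were limma fits over the whole table with Benjamini-Hochberg adjustment, and a gene or exon was called at an adjusted p below 0.05.

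Ribosomal protein genes were lower as a group in lsm8-/- embryos. Their share of all junction reads in that table was 17.0%, 17.0% and 16.9% in the controls and 12.6%, 13.3% and 12.6% in the mutants, with no overlap. In the snapc3 table the share was 16.7%, 16.9% and 16.4% in the controls and 15.3%, 15.1% and 15.8% in the mutants, again without overlap. The mean difference was −1.25 percentage points there and −4.16 in the lsm8 table. In tnpo3-/- embryos the share was 20.5%, 21.1% and 19.7%, overlapping with their controls at 19.3% to 20.1%. Over the 63 exons in 41 genes that all tables list, the share was 19.2% ± 0.307 in controls, 17.6% ± 0.491 in snapc3-/-, 15.1% ± 0.516 in lsm8-/- and 19.9% ± 0.569 in tnpo3-/- embryos (SD, n = 3 each). A summed share over chosen genes was given no test. In bulk RNA, fewer cells rich in ribosomes and less ribosomal protein mRNA per cell cannot be told apart.

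**Figure D1:**
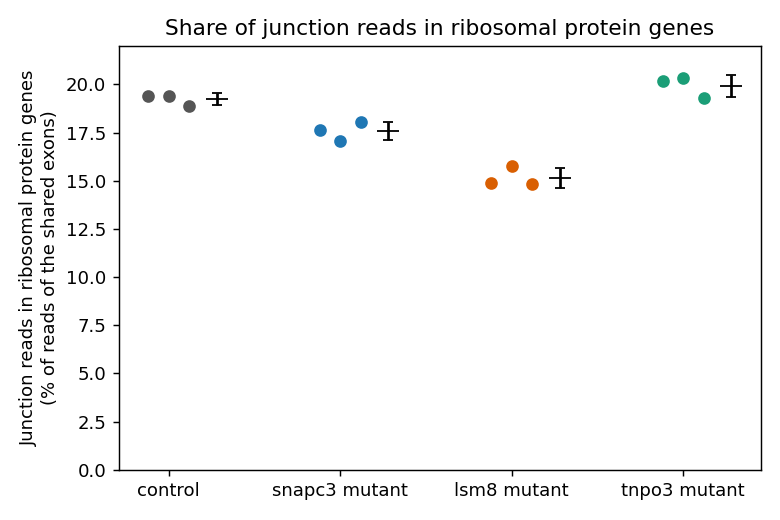
Share of junction reads that fall in ribosomal protein genes (percent of the reads of exons listed in every table) in each of the 12 libraries; each point is a library and the bar beside it the mean ± SD of 3. The lsm8-/- libraries lie between 14.8% and 15.7%, below the controls at 18.9% to 19.4%, and the tnpo3-/- libraries lie at 19.3% to 20.3%.

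By gene, 51 of 58 tested members fell in lsm8-/- embryos and 1 rose, where 5.31% of all tested genes fell and 6.98% rose. The 51 comprised 29 of 35 large-subunit genes and 22 of 23 small-subunit genes. The median log2 fold change was −0.43 over the members and 0.11 over all tested genes. Scaling by the median of ratios moved the median of all genes to 0.01 and that of the members to −0.54, with 52 members lower and 1 higher. That scaling also turned the split of all called genes from 703 higher and 535 lower to 455 higher and 710 lower. Groups did not overlap for 54 of the 58 members, or 93.1%, against 33.9% of all tested genes.

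Among small-subunit genes, rps19, whose human counterpart is mutated in Diamond-Blackfan anaemia, was counted at 1428, 1424 and 1372 RPM in controls and at 964, 1010 and 877 in lsm8-/- embryos (log2 fold change −0.57, SE 0.07, adjusted p = 0.0011, limma). rps7 was counted at 5004, 4614 and 4524 against 3238, 3208 and 3126 (−0.56, adjusted p = 0.00039, limma). For both genes every mutant library lay below every control library. rps6, the ribosomal substrate of S6 kinase, was counted at 5240, 5110 and 5042 against 3626, 3792 and 3652, a log2 fold change of −0.48 (adjusted p = 0.000575, limma). rpsa, also known as the laminin receptor, gave 3080, 3249 and 3230 against 2522, 2891 and 2678. Its log2 fold change was −0.24 (adjusted p = 0.0455, limma), and this call was lost under 6 of the alternatives tried. rps2 gave −0.27 (adjusted p = 0.0099) and was lost under 2.

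Among large-subunit genes, rpl5 and its partner rpl11 carry 5S ribosomal RNA into the large subunit and, in mammals, bind the p53 regulator Mdm2; zebrafish have the copies rpl5a and rpl5b. rpl5b was counted at 2076, 2034 and 1975 RPM in controls and at 1299, 1446 and 1404 in lsm8-/- embryos (log2 fold change −0.55, adjusted p = 0.000742, limma). rpl5a was counted at 3976, 3964 and 3858 against 2792, 3165 and 2990, a log2 fold change of −0.40 (adjusted p = 0.00342, limma). Both copies were lower in all mutant libraries. rpl13a gave −0.55 (adjusted p = 0.000263), rpl38 −0.53 (adjusted p = 0.00222) and rpl9 −0.28 (adjusted p = 0.0132). rplp0, the base of the stalk, was counted at 2555, 2448 and 2494 against 1967, 2198 and 1954 (−0.29, adjusted p = 0.0213, limma), and 3 alternatives lost its call.

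The members that did not pass were rpl6 at −0.21, rplp2 at −0.12, rpl3 at −0.09, rpl19 at −0.06, rpl7l1 at 0.01 and rpl22 at 0.25. Of these, rpl7l1 is a nucleolar relative of rpl7 and not a subunit protein. The adjusted p was 0.0553 for rpl6 and 0.0507 for rpl22 (limma).

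**Figure D2:**
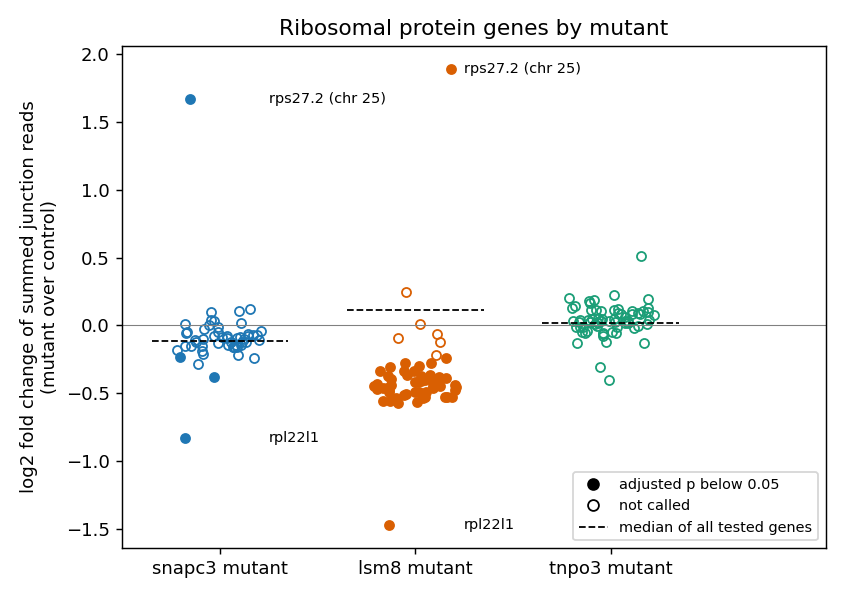
log2 fold change of summed junction reads (mutant over control) for every tested ribosomal protein gene in each mutant; filled points were called, open points were not, and dashed lines mark the median of all tested genes. In lsm8-/- embryos most points lie in a band around the members' median of −0.43, below the line at 0.11, while rps27.2 of chromosome 25 and rpl22l1 stand apart in lsm8-/- and snapc3-/- embryos.

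A pair of genes stood outside that band in both lsm8-/- and snapc3-/- embryos. The first was rps27.2 of chromosome 25 (ENSDARG00000090186), one of several zebrafish genes for the small-subunit protein rps27. It was counted at 66.8, 43.3 and 53.4 RPM in controls and at 192, 179 and 228 in lsm8-/- embryos. The gene rose by 1.89 on the log2 scale (SE 0.16, adjusted p = 8.06e-05, limma), as the 1 member that rose there. In the snapc3 table it was counted at 105, 69.8 and 84.2 against 271, 226 and 322, a rise of 1.66 on the log2 scale (SE 0.18, adjusted p = 0.00177, limma). In the tnpo3 table it was counted at 82.2, 53.5 and 64.7 against 78.8, 72.4 and 73.7 (0.19, adjusted p = 0.559, limma), with overlapping groups. The authors' deposited table gives this identifier 1.66 in snapc3-/- (SE 0.21, adjusted p = 0.0257) and 1.71 in lsm8-/- embryos (SE 0.17, adjusted p = 0.00864).

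Other copies of rps27 had other values. The identifier of chromosome 16 that carries the same symbol (ENSDARG00000055475) fell in lsm8-/- embryos, from 1049, 1043 and 1101 RPM to 820, 911 and 853 (log2 fold change −0.31, adjusted p = 0.0228, limma). Over the shared exons rps27.1 was counted at 2649, 2606 and 2574 RPM in controls, at 2468, 2227 and 2542 in snapc3-/-, at 2065, 2134 and 1981 in lsm8-/- and at 2606, 2335 and 2384 in tnpo3-/- embryos. Near-identical copies can share reads, and how the authors' counting split such reads is not given, so the levels of single rps27 copies are uncertain.

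The second gene was rpl22l1. It and its paralogue rpl22 encode proteins of the large subunit, and both are known for roles in blood and T cell development in mouse and zebrafish. In the lsm8 table rpl22l1 was counted at 399, 443 and 468 RPM in controls and at 159, 152 and 162 in mutants. That was a fall of 1.47 on the log2 scale (SE 0.09, adjusted p = 6.24e-06, limma). In the snapc3 table it was counted at 628, 713 and 738 against 386, 394 and 389, or −0.83 on the log2 scale (SE 0.08, adjusted p = 0.000812, limma). In the tnpo3 table it was counted at 491, 546 and 567 against 556, 469 and 516 (−0.06, adjusted p = 0.794, limma). The authors' deposited table lists rpl22l1 in lsm8-/- embryos at −1.60 (SE 0.13, adjusted p = 0.00474). These are the only entries for members in the authors' deposited tables of changed genes, which list 464 genes for snapc3-/-, 851 for lsm8-/- and 115 for tnpo3-/- embryos.

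rpl22 itself was counted at 778, 794 and 766 RPM in controls and at 875, 945 and 953 in lsm8-/- embryos. Those groups did not overlap, yet the log2 fold change of 0.25 was not called, and median-of-ratios scaling gave 0.14 (adjusted p = 0.368). The fit of all groups over shared exons did call it, at 0.33 (adjusted p = 0.00316, limma), and there it was also higher in lsm8-/- than in snapc3-/- embryos by 0.23 (adjusted p = 0.015, limma). Its log2 fold change was 0.12 in snapc3-/- (adjusted p = 0.321, limma) and 0.02 in tnpo3-/- embryos (adjusted p = 0.916, limma).

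**Figure D3:**
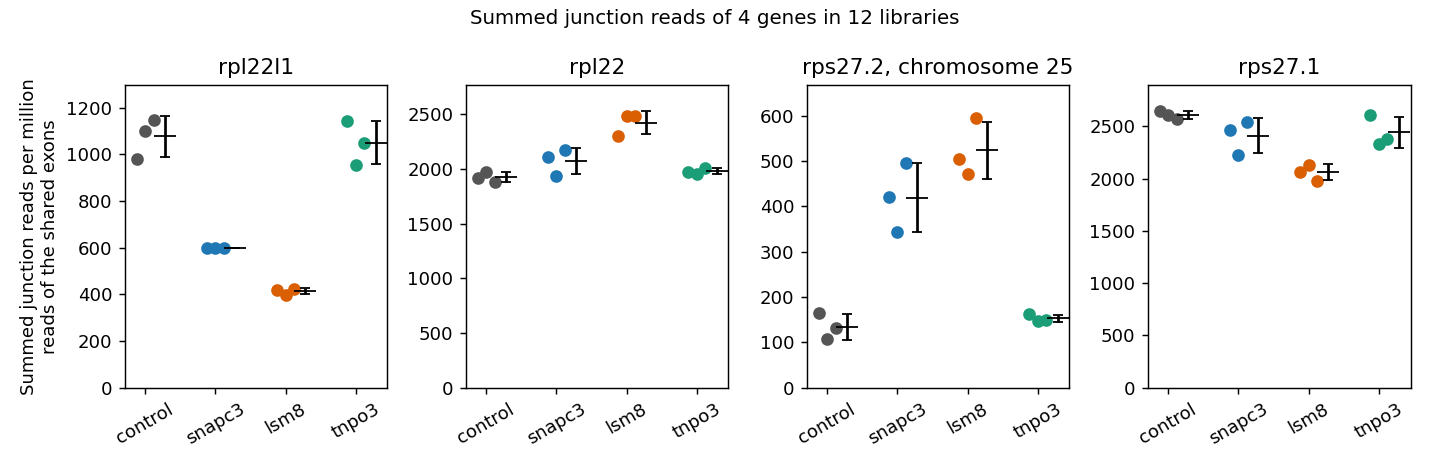
Summed junction reads per 1000000 reads of the shared exons for rpl22l1, rpl22, rps27.2 of chromosome 25 and rps27.1 in the 12 libraries; points are libraries and bars the mean ± SD of 3. rpl22l1 has a mean of 1077 in controls, 599 in snapc3-/- and 413 in lsm8-/- embryos, and rps27.2 of chromosome 25 has 134, 420 and 524, while both stay near the controls in tnpo3-/- embryos at 1050 and 153.

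In snapc3-/- embryos the median of the set was near that of all genes. Of 53 tested members 1 rose and 3 fell, against 1.34% and 4.68% of all tested genes, and the medians were −0.10 for the members and −0.11 for all genes. Beside rpl22l1, rps20 fell from 6662, 6775 and 6485 RPM to 5652, 5517 and 5824 (log2 fold change −0.23, adjusted p = 0.0324, limma). rpl31 fell from 1861, 2344 and 2015 to 1534, 1583 and 1651 (−0.38, adjusted p = 0.0409, limma). Median-of-ratios scaling gave rps20 −0.12 (adjusted p = 0.364) and rpl31 −0.26 (adjusted p = 0.158), so that 1 member stayed higher and 1 lower. That scaling moved the median of all genes by over 0.1, to 0.00, and turned the split of all called genes from 138 higher and 482 lower to 239 higher and 325 lower. rpl5b at −0.15, rpsa at −0.09, rpl5a at −0.07, rps6 at 0.04, rpl12 at −0.28 and rpl7l1 at 0.11 were not called; for rpl5a and rpsa the sign turned under that scaling, to 0.04 and 0.03. Without the control library in position 1, rpl12 was called at −0.38 (adjusted p = 0.0444, limma).

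In tnpo3-/- embryos limma called 0 of 66 members, and voom weights and median-of-ratios scaling also gave 0. An unadjusted p below 0.05 was reached by 3 of the 66, and by 2015 of all 11493 tested genes. Of all tested genes 0.887% rose and 1.62% fell, and the medians were 0.03 for the members and 0.02 for all genes. The lowest value was rpl12, counted at 3871, 4259 and 5122 RPM in controls and at 3271, 3247 and 3447 in mutants (log2 fold change −0.40, adjusted p = 0.0695, limma). Without the control library in position 1 it was called, at −0.49 (adjusted p = 0.0356, limma), and so it was in the fit of all groups over shared exons, at −0.44 (adjusted p = 0.0104). The highest value was rps8b at 0.51 (adjusted p = 0.189), a gene with only 10.2 to 12.7 RPM in controls and 13.9 to 19.9 in mutants. rpl31 gave 0.20, rplp0 0.23, rplp1 −0.13, rpl5a 0.09, rpl5b 0.03, rpsa 0.03 and rps6 −0.01. rps19bp1, whose name matches the rule although its product binds rps19 and is no subunit protein, gave −0.30 (adjusted p = 0.325).

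Mutants were also fitted against each other over the shared exons. Of 41 members 1 was higher and 24 lower in lsm8-/- than in snapc3-/- embryos, and 34 were higher and 2 lower in tnpo3-/- than in lsm8-/- embryos. Calls in either direction covered 35.6% and 19.7% of all genes tested in these pairs. Under median-of-ratios scaling the counts were 0 and 38, and 37 and 1. Between tnpo3-/- and snapc3-/- embryos 18 were higher and 1 lower, with 17% of all genes called, but median-of-ratios scaling left 1 and 2. rpl22l1 was lower in lsm8-/- than in snapc3-/- embryos by a log2 difference of −0.54 (adjusted p = 0.000519, limma). For rps27.2 of chromosome 25 that difference was 0.33 (adjusted p = 0.11, limma).

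Other lists of translation genes were described in the same way in lsm8-/- embryos, where the median of all tested genes was 0.11 and became 0.01 under median-of-ratios scaling. Of 52 tested translation factors 11 fell and 5 rose in lsm8-/- embryos, with a median log2 fold change of 0.04, below that of all genes (4 higher and 13 lower, with a median of −0.07, under median-of-ratios scaling). Among those with the smallest p, eef1g (−0.47), a subunit of the elongation factor complex that delivers tRNA, tpt1 (−0.37) and gnb2l1 (−0.33), the scaffold of the small subunit also called rack1, fell. Of all genes tested there 6.98% rose and 5.31% fell. Of 76 ribosome biogenesis genes 6 rose, near that share, and 0 fell (median 0.14). Those higher included nmd3 (0.78), the export adaptor of the large subunit, pwp2h (0.54), npm3 (0.52) and rrn3 (0.53), an initiation factor of RNA polymerase I. Median-of-ratios scaling gave 4 higher and 1 lower (median 0.04). Of 30 mitochondrial ribosomal protein genes 5 rose and 0 fell (median 0.26), such as mrpl9 (0.59) and mrpl45 (0.53); median-of-ratios scaling left 3 higher and 0 lower (median 0.15). The lists were not compared with each other by a test.

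In snapc3-/- embryos 1 of 51 translation factors rose and 1 fell, eif4a3 (0.65), which is part of the exon junction complex, and eef2b (−0.33). Of 85 ribosome biogenesis genes 1 rose and 5 fell (median −0.23, and −0.11 over all genes). Of all tested genes 1.34% rose and 4.68% fell, so these counts were near that background. Those lower included npm1a (−0.55), rrp12 (−0.59), nop56 (−0.56) and polr1a (−0.82), a subunit of RNA polymerase I. Median-of-ratios scaling gave 1 higher and 0 lower of the translation factors and 2 higher and 3 lower of the biogenesis genes. The counts in tnpo3-/- embryos were 1 higher and 1 lower of 50 translation factors, eif4e1c (0.44) and eif4a2 (−0.67). Of 88 biogenesis genes 1 was higher, riok3 (0.61), and 0 lower. There 0.887% of all tested genes rose and 1.62% fell. Among mitochondrial ribosomal protein genes limma called 0 of 31 and 0 of 37 in snapc3-/- and tnpo3-/- embryos, also under median-of-ratios scaling. An unadjusted p below 0.05 was reached by 5 and 12 of them, and by 2391 of 10295 and 2015 of 11493 of all tested genes.

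Markers of single tissues moved in the same libraries. Skeletal muscle markers rose in lsm8-/- embryos (13 of 20, and 4 of 20 under median-of-ratios scaling, 0 fell), and their summed level was 182809 to 195039 RPM in controls and 235907 to 240827 in mutants. In snapc3-/- embryos 6 of 13 rose, with sums of 51799 to 59094 and 80948 to 90603, and in tnpo3-/- embryos limma called 0 of 15, with 1 at an unadjusted p below 0.05. Exocrine pancreas markers fell in all mutants: 7 of 8 in snapc3-/-, 6 of 8 in lsm8-/- and 6 of 11 in tnpo3-/- embryos. Their summed level was 207 to 508 RPM in snapc3-/- libraries, where controls had 5705 to 9324. It was 450 to 1026 RPM in lsm8-/- libraries against 5469 to 7286, and 1209 to 1571 RPM in tnpo3-/- libraries against 5829 to 8438. Of 8, 9 and 8 neuron markers limma called 0 in snapc3-/-, lsm8-/- and tnpo3-/- embryos, with 2, 4 and 1 at an unadjusted p below 0.05. Over all tested genes that p was reached by 2391 of 10295, 2866 of 10069 and 2015 of 11493. Under median-of-ratios scaling 3 neuron markers fell in lsm8-/- embryos. Of 6 markers of proliferating cells 2 fell in snapc3-/- embryos (1 under that scaling), and limma called 0 of 7 in lsm8-/- and 0 of 10 in tnpo3-/- embryos, with 0 and 4 at an unadjusted p below 0.05. Of 10 erythroid markers 0, 1 and 2 were listed in the tables and none was called. No marker tested was at 0 in all libraries. The part of tissue composition in the ribosomal protein values was not tested.

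Skipping of exons in ribosomal protein genes was rare. The median exon of the set had a mean of 25839, 20226 and 25504 reads per library in the snapc3, lsm8 and tnpo3 tables, where the median over all exons was 176, 162.5 and 173.8, so skipping could be read at far lower shares than in a typical exon. An exon is listed in a table only if it has at least 1 read of each form there, which all 87, 139 and 139 listed exons had. Over all members 0.548% of junction reads were skipping reads in the controls of the snapc3 table and 0.520% in its mutants. These shares were 0.339% and 0.320% for lsm8 and 0.356% and 0.393% for tnpo3. Most of these came from a 29 bp exon of rps24 and an exon of rpl9, described further on.

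With those exons left out, an alternative added after seeing the data, skipping was higher in tnpo3-/- and snapc3-/- libraries. Counting every skipping junction once, controls in the tnpo3 table had 667, 437 and 296 skipping reads over 121 junctions and the mutants 1679, 2041 and 1567. Per 1000000 summed junction reads of the members, which can count a read at several exons, this was 204, 117 and 88.1 against 471, 530 and 506. In the snapc3 table controls had 664, 426 and 296 skipping reads and mutants 1427, 1028 and 1323, or 312, 176 and 135 against 621, 521 and 623 per 1000000. Groups overlapped in neither table. In exons of other genes with at least 1000 reads, skipping reads made up 2.78% in controls and 2.80% in mutants of the tnpo3 table. In the snapc3 table these shares were 3.59% and 3.36%. A rate without often skipped exons was not taken for other genes, so the rise is not shown to be particular to the members. In the lsm8 table the rates were 195, 112 and 83.1 against 176, 168 and 174 per 1000000, and the groups overlapped. Without 3 exons that single controls skipped, left out after their values were seen, the lsm8 table gave 90.1, 88.3 and 83.1 against 173, 167 and 172, without overlap and with no test. Each of these exons was high in 1 control, so leaving them out must lower the controls. The control library in position 1 was the highest of the controls in every table, and 331 of its skipping reads came from a single exon of rpl12.

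An exon is listed only where some library of its table had a skipping read, and 78 of 139 exons in the lsm8 table and 79 of 139 in the tnpo3 table had none in controls, so the number of listed exons with a skipping read is not compared between groups. Among exons whose libraries averaged 1000 reads or more, skipping reads were found in every mutant library and in no control for 14 of 136 members in the tnpo3 table, or 10.3%, against 8.22% of all such exons. The shares were 4.32% and 3.79% in the lsm8 table and 2.38% and 5.77% in the snapc3 table. These shares were not tested, and in tnpo3-/- and lsm8-/- embryos those of the members lay near the background.

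**Figure D4:**
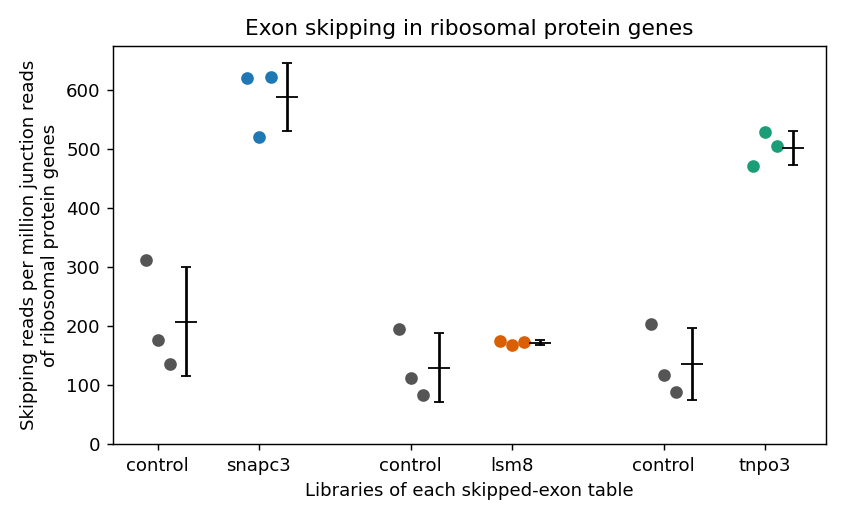
Skipping reads per 1000000 summed junction reads of ribosomal protein genes, for the libraries of each table. Each skipping junction was counted once, without the frequently skipped exons of rps24 and rpl9. The summed junction reads can count a read at several exons. Points are libraries and bars the mean ± SD of 3. Controls lie at 88.1 to 204 and mutants at 471 to 530 in the tnpo3 table, while the lsm8 mutants at 168 to 176 lie within the range of their controls. Without 3 exons that single controls skipped, left out after their values were seen, lsm8 controls had 83.1 to 90.1 and mutants 167 to 173. Leaving out exons that are high in 1 control must lower the controls.

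In tnpo3-/- embryos inclusion fell for 29 of 139 member exons in 24 genes and rose for 0, where 6.06% of all tested exons fell and 0.203% rose. Among exons of at least 1000 reads per library, 20.6% of 136 member exons and 11.8% of all such exons fell. This minimum does not match the 2 sets in depth, as the median member exon had 25504 reads. All 29 had more skipping in every mutant library than in any control, and 12 had no skipping read in any control. These counts were taken among exons already called, without the share over all called exons, and serve as description only. Exons without a skipping read in controls are listed only through the mutants. The fit becomes too liberal where one form has very few reads, so it was repeated for exons with at least 20 reads of each form, a minimum chosen after seeing the data. That fit called 24 of 47 member exons in 19 genes, 21 of them among the 29, against 20.5% of all exons tested so. Most member exons reach 20 skipping reads through the mutants, as only 14 did so in controls alone, and the count therefore serves as a check of single calls and not as support for the set. Without the tnpo3-/- library in position 2 the count of 29 became 19. The authors' deposited false discovery rate was below 0.05 for 2 of the 29.

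The exon with the smallest p was in rps25, a small-subunit protein that some viral RNAs need to start translation in mammalian cells. This exon, of 184 bp at chr10:40469548-40469731 (Zv9), had 0 skipping reads in all controls and 72, 67 and 58 in the mutants. Skipping was 0.302% ± 0.0187 (SD, n = 3), at least 65.0-fold higher than the 0.00464% that 3 reads over the control group would give (adjusted p = 1.43e-05, limma, and 0.00173 with the 20-read minimum). An exon of rpl7a at chr5:34904261-34904410 (150 bp) had 0 skipping reads in controls and 64, 66 and 31 in mutants. Skipping was 0.195% ± 0.0434, at least 47.9-fold higher against the same kind of floor (adjusted p = 2.06e-05, limma). The controls together had 129219 inclusion reads at the rps25 exon and 147287 at the rpl7a exon without a skipping read.

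The rpl31 exon at chr9:57957223-57957348 (126 bp) was skipped at a trace level in controls, with 0, 2 and 0 skipping reads there and 95, 101 and 75 in mutants, or 0.539% ± 0.039 (SD, n = 3). Its skipping ratio of mutants over controls was 114 with a 95% exact counting interval of 31.3 to 947 (adjusted p = 4.35e-05, limma). Intervals and floors cover counting error only.

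More frequent in controls were skips of rpl10a, whose exon at chr8:24592861-24593242 (382 bp) had 3, 4 and 2 skipping reads there and 112, 125 and 60 in tnpo3-/- embryos. Skipping was 0.0323% and 0.977%, a 30.3-fold difference (adjusted p = 0.000444, limma). A form of 81 bp with the same skipping junction gave 0.0175% and 0.534%. In rpl24, at chr1:606286-606422 (137 bp), skipping reads were 28, 9 and 14 in controls and 103, 115 and 87 in mutants, or 0.132% and 0.736% (adjusted p = 0.04, limma). The highest skipping among the 29 was 2.84% ± 2.66 in rps19bp1, from 11, 2 and 2 reads, and the lowest 0.0147% in rpsa, from 2, 2 and 5 reads. The median over the 29 was 0.302%.

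The exons with the most reads differed in skipping. Of the 6 most-read exons of the set, rpl7a, with the 64, 66 and 31 skipping reads given above, and rpl32 at chr22:33732487-33732668 (182 bp) were called in tnpo3-/- embryos. The rpl32 exon had 1, 0 and 11 skipping reads in controls and 19, 168 and 116 in mutants, so the lowest mutant library lay near the highest control. The rps29 exon at chr20:54438197-54438296 had 1, 0 and 3 in controls, 9, 0 and 6 in tnpo3-/- and 9, 19 and 12 in snapc3-/- embryos, and was called in the last (adjusted p = 0.0385, limma). Exons of rplp0 (6, 0 and 0), rpl23a at chr21:25466592-25466772 (1, 3 and 0) and rpl35 (0, 0 and 1) had 0 skipping reads in controls and few in tnpo3-/- embryos, and were not called.

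**Figure D5:**
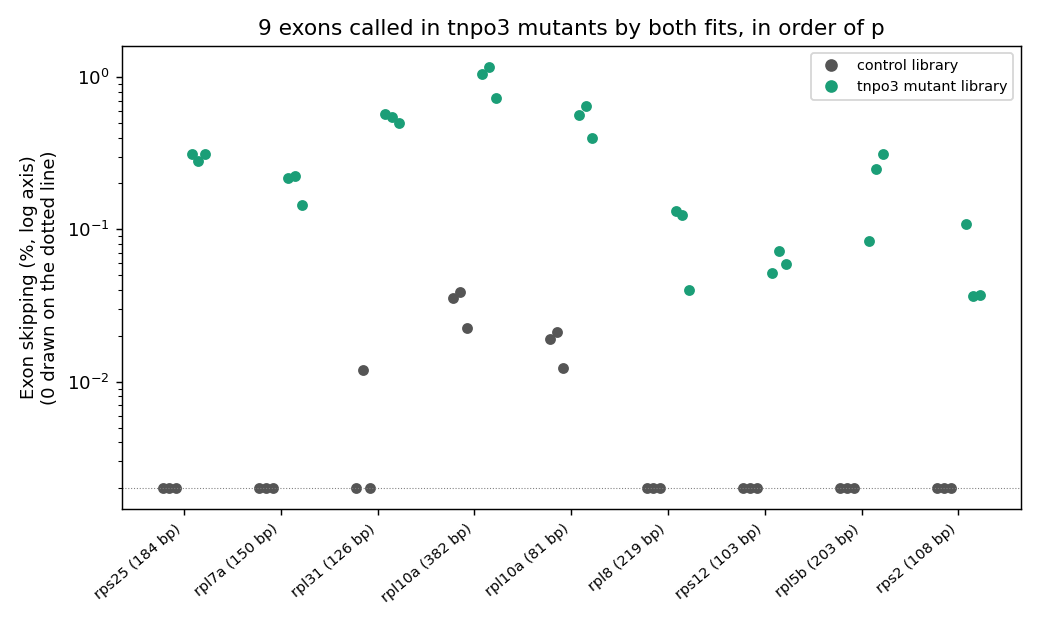
Skipping (percent, log axis) of 9 exons in 8 genes in tnpo3-/- embryos, by library. The genes were picked by hand among the exons with the smallest p that both fits call, so other such exons are not drawn. Zeros are drawn on the dotted line. For each exon every mutant library lies above every control library, from 0.0363% in rps2 to 1.16% in the 382 bp exon of rpl10a, and the control libraries reach at most 0.0388%.

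In snapc3-/- embryos inclusion fell for 8 of 86 member exons and rose for 0, where 2.51% of all tested exons fell and 0.103% rose. At 1000 reads or more the shares were 9.52% of 84 members and 6.79% of all exons. All 8 were without overlap between groups, again counted among called exons only and as description. Each of the 8 met the 20-read minimum. That fit called 2 of 35 member exons, those in rps27.1 and rpl38, near the 5.52% of all exons whose inclusion fell. Both reach 20 skipping reads only through the mutants, so this is a check of single calls and not support for the set. The authors' deposited false discovery rate was below 0.05 for 0 of the 8. The rps27.1 exon at chr19:9370169-9370279 (111 bp) had 0, 1 and 1 skipping reads in controls and 18, 15 and 22 in mutants, or 0.169% ± 0.0256 (adjusted p = 0.00355, limma). A 26 bp exon of rpl38 at chr12:40099970-40099995 had 0 in all controls and 7, 5 and 8 in mutants (0.0828% ± 0.0137, at least 7.21-fold higher).

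Of the 8 exons called in snapc3-/- embryos, those with the highest skipping did not keep their call under the 20-read minimum. The rpl26 exon at chr14:53372005-53372145 (141 bp) had 9, 5 and 0 skipping reads in controls and 206, 52 and 135 in mutants, or 0.0332% and 0.965% ± 0.544 (adjusted p = 0.00411, and 0.0585 with that minimum). The rpl30 exon at chr19:34232855-34232985 (131 bp) had 9, 10 and 0 against 143, 103 and 127, or 0.0338% and 0.698% ± 0.0614 (adjusted p = 0.00678 and 0.0731). The same exons in tnpo3-/- embryos had 74, 47 and 31, and 78, 124 and 149 skipping reads, and both fits called them. rpl14 at chr19:49962143-49962196 (54 bp) had 0, 7 and 2 against 66, 37 and 24, and 0, 0 and 0 in tnpo3-/- embryos. The exon of rpl5a at chr2:10494411-10494480 (70 bp) had 0 skipping reads in controls and 7, 20 and 1 in snapc3-/- embryos (adjusted p = 0.032, and 0.119 with the minimum). Without the snapc3-/- library in position 1, or that in position 2, the count of 8 became 5.

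In lsm8-/- embryos inclusion fell for 11 of 139 member exons in 10 genes and rose for 2, where 4.08% of all tested exons fell and 0.222% rose. With at least 1000 reads 7.91% of the members and 7.75% of all exons fell, so the count was near that background. Of the 11, 9 had no skipping read in any control and are listed only through the mutants. The 20-read minimum was reached by 3 of the 11, in rpl23a, rps21 and rps27.1, and only through the mutants. That fit called these 3 of 26 member exons, where inclusion fell for 8.75% of all exons, and serves as a check of single calls only. The authors' deposited false discovery rate was below 0.05 for 0 of the 11. The rpl23a exon at chr21:25467789-25467858 (70 bp) had 0 skipping reads in controls and 16, 16 and 12 in mutants, or 0.230% ± 0.0551, at least 28.8-fold higher (adjusted p = 6.72e-05, limma). The rps21 exon at chr23:9334060-9334122 (63 bp) had 0 against 9, 14 and 12 (0.188% ± 0.0481, at least 21.7-fold higher, adjusted p = 8.26e-05, limma). The rps27.1 exon had 0, 1 and 1 against 32, 29 and 20 skipping reads, or 0.440% ± 0.14 (ratio 73.1, interval 19.6 to 614, adjusted p = 0.000114, limma). The remaining 8 rested on 4 to 15 skipping reads each, such as 5, 5 and 5 in rpl4, 4, 6 and 2 in rps10 and 5, 1 and 3 in rpl37, and groups overlapped for 3 of them. Calls in both directions numbered 13, and 7 without the control in position 1 or the lsm8-/- library in position 3, and 8 without the control in position 2.

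The exons with more inclusion were a pair with skips in every control. The rpl24 exon already named went from 28, 9 and 14 skipping reads to 0, 2 and 0 in lsm8-/- embryos (0.132% and 0.00988%, adjusted p = 0.017, and 0.0799 with the 20-read minimum). An exon of rps23 at chr11:43636573-43636732 (160 bp) went from 5, 11 and 2 to 0, 0 and 0 (adjusted p = 0.0478). Count totals were lower in the lsm8-/- libraries, and with a pseudocount scaled to depth 7 of the 11 falls remained called.

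Direct fits between mutants were made over the 63 shared exons. The shares of all exons given beside them were not matched in depth to the members, so the counts serve as description only. In tnpo3-/- against snapc3-/- embryos inclusion was lower for 10 exons and higher for 3, with 5.43% of all exons called. Those lower included rpl19 (skipping reads 0, 2 and 1 in controls, 0, 0 and 0 in snapc3-/-, 1, 1 and 2 in lsm8-/-, 11, 12 and 8 in tnpo3-/-). Another was rpl13 at chr7:69525484-69525657, with 0, 2 and 2, then 0, 0 and 0, then 0, 3 and 1, then 12, 42 and 14. Those higher were the rpl14 exon, an rps28 exon at chr2:23356004-23356051 with 9, 28 and 12, then 96, 51 and 102, then 8, 10 and 14, then 6, 16 and 25, and an rpl12 exon with 331, 0 and 0 in controls, 366, 289 and 250 in snapc3-/- and 0, 0 and 2 in tnpo3-/- embryos. In tnpo3-/- against lsm8-/- embryos 8 were lower and 2 higher (5.33% of all exons), led by rpl24 with a log2 difference of −5.92 (SE 0.70, adjusted p = 0.00172, limma). Between lsm8-/- and snapc3-/- embryos 4 were higher and 1 lower, with 2.28% of all exons called. rps19 at chr16:26430714-26430897 was lower in lsm8-/-, with skipping reads 1, 2 and 3 in controls, 0, 0 and 1 in snapc3-/-, 1, 3 and 10 in lsm8-/- and 0, 0 and 0 in tnpo3-/- embryos.

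A few exons were skipped often in every group. The 29 bp exon of rps24 at chr13:30457427-30457455, whose human counterpart gene is known for tissue-dependent short exons near its end, was skipped at 81.4%, 79.1% and 79.8% in controls. The values were 75.0%, 73.3% and 74.3% in snapc3-/-, 72.8%, 77.7% and 75.6% in lsm8-/- and 81.7%, 78.4% and 80.3% in tnpo3-/- embryos. The ranges of snapc3-/- and lsm8-/- embryos lay below that of the controls, but limma called neither (adjusted p = 0.714 and 0.695), while the deposited false discovery rates were 0.00333 and 0.0304. The rpl9 exon at chr1:22044413-22044530 (118 bp) was skipped at 7.04%, 6.76% and 6.10% in controls and at 12.9%, 12.9% and 13.4% in tnpo3-/- embryos, without overlap (adjusted p = 0.555, limma; deposited false discovery rate 0). In lsm8-/- embryos it was skipped at 6.40%, 5.70% and 6.03%. The false discovery rates are those of the authors' deposited tables.

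The gene whose sum rose, rps27.2 of chromosome 25, had 1344, 997 and 1125 reads at its exon in controls. That was below the median exon of the set and above the median over all exons. This 111 bp exon at chr25:34829171-34829281 was skipped at 1.04%, 0.40% and 1.76% in controls and at 3.76%, 4.19% and 12.6% in snapc3-/- embryos. Skipping was 4.57%, 3.85% and 6.19% in tnpo3-/- and 2.32%, 1.12% and 0.944% in lsm8-/- embryos. The snapc3-/- and tnpo3-/- libraries did not overlap with the controls, and the adjusted p was 0.158 in snapc3-/-, 0.125 in tnpo3-/- and 0.775 in lsm8-/- embryos (limma). With the 20-read minimum the tnpo3-/- value passed (adjusted p = 0.048), and the deposited false discovery rates were 6.77e-14, 5.74e-08 and 1.

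Retained introns were listed for 14 introns in 13 genes, of 740, 741 and 744 introns in the tables. Limma called 0 of 14 in snapc3-/- and 0 in tnpo3-/- embryos, with 1 and 0 at an unadjusted p below 0.05, and 0% of all introns were called in either. In lsm8-/- embryos 1 of 14 was called, with 3.1% of all introns. This was an 85 bp intron of rps4x at chr7:53089500-53089584, with 62, 53 and 44 reads of the retained form in controls and 109, 132 and 127 in mutants. Retention was 0.126% and 0.518% (log2 difference 2.05, SE 0.39, adjusted p = 0.0466, limma), and the call was lost when any library was left out. Mean retention was higher in lsm8-/- embryos for 13 of the 14 introns, or 92.9%, against 71.9% of all tested introns. Groups did not overlap for 10 of the 14, or 71.4%, against 29.7%. The introns were not matched in depth, the 14 include a nested pair in rpl10a, and these shares were not tested. In snapc3-/- and tnpo3-/- embryos mean retention was higher for 6 and 4 of the 14, where the shares of all tested introns were 43% and 37%, and groups did not overlap for 3 and 4, against 15.4% and 17%. Retention in controls and lsm8-/- embryos was 0.296% and 0.724% for rpl13a (adjusted p = 0.0965, limma) and 1.45% and 3.35% for rpl7l1 (0.141). In the same groups it was 0.141% and 0.321% for rps8a (0.154), 0.0235% and 0.139% for rpl7a (0.155) and 0.0946% and 0.257% for rpl23a (0.165). The other introns, again in controls and lsm8-/- embryos, were those of rps3a (0.180% and 0.331%), rps28 (0.157% and 0.276%), rps27a (0.0514% and 0.0706%), rps2 (0.15% and 0.175%), rpl9 (0.103% and 0.133%) and rpl19 (0.153% and 0.123%). An 87 bp intron of rpl10a at chr8:24593243-24593329 was mostly retained, at 60.1% in controls and 73.8% in lsm8-/- embryos (adjusted p = 0.261), and the 388 bp intron that contains it went from 1.55% to 2.42% (0.308). Deposited false discovery rates below 0.05 were given to rpl7l1 and both rpl10a introns in lsm8-/- embryos, where retention was higher. In tnpo3-/- embryos such a rate was given to the 388 bp rpl10a intron, where retention was lower, at 1.55% in controls and 1.07% in mutants.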

How the data were processed

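RNA-seq of 12 whole-embryo libraries was analysed from the authors' processed tables. TopHat2 2.0.13, Bowtie2 2.2.3, featureCounts 1.4.5-p1, limma 3.26.3 and the build Zv9 are named per the submitters' processing notes, and libraries were stranded total RNA depleted of ribosomal RNA, per the labels' protocols. No source used here names the splicing tool. The deposited splicing tables hold raw junction read counts of both forms, 3 libraries to a cell, with p-values and false discovery rates per event. The authors' expression tables hold log2 fold changes, a moderated score and p-values for selected genes only, with no value per library.

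From the counts, junction reads were summed by gene, set per 1000000 reads of the skipped-exon table (RPM) and tested as log2 values (pseudocount 0.5, mean of at least 10 reads per library) with limma 3.58.1 in R 4.3.3. For exons and introns the log2 ratio of both forms, each divided by its length, was tested with limma where each form had at least 1 read. Fits used one mutant and the controls, and p-values were adjusted over the whole table. Scripts were tested on simulated data, in which the exon test called too many events with few reads of one form; the fits with 20 reads of each form and with a pseudocount scaled to depth were therefore added after seeing the data. Summed junction reads depend on which exons a table lists, and are not gene counts. Table reads per library, 12772103 to 22999590, set the depth.

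The members and gene lists were chosen with earlier results of these data known. Named were members in a deposited expression table, the called members with the 6 highest and 6 lowest changes per mutant (the 3 highest and lowest of all where fewer were called), rpl5a, rpl5b, rpl22, rpl22l1, rplp0, rpsa and rps6, the 6 exons with the smallest p per mutant, the 6 with the most reads, all introns tested and up to 4 genes of each other list. Other genes and exons named were chosen after their values were seen. A few genes that the rule names are not reported here. No sequence is shown.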

Additional observations from a re-analysis of the deposited data

How the results depend on the processing

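No paired analysis was possible because the positions of the libraries in a cell are not matched to replicate numbers. Called genes in snapc3-/- embryos numbered 2 under median-of-ratios scaling instead of 4. In tnpo3-/- embryos shared exons with all groups gave 1 instead of 0. Called exons (8 of 86 in snapc3-/-, 13 of 139 in lsm8-/-, 29 of 139 in tnpo3-/-) became 1, 1 and 12 over the 63 shared exons with all groups. Called exons that are not shared are absent from that fit, and this loss was not separated from loss by the fit. A minimum difference of 10 percentage points left 0, 0 and 0. The deposited false discovery rates called 3, 1 and 4 member exons, mostly other ones. Of the exons called here with lower inclusion, they called 0 of 8, 0 of 11 and 2 of 29. With 20 reads of each form, alone or with the scaled pseudocount, snapc3-/- embryos had 2 and lsm8-/- embryos 3, and a pseudocount of 2 gave lsm8-/- embryos 31. The intron call of lsm8-/- embryos became 0 without a minimum, with the scaled pseudocount or with 10 points, 2 with 20 reads of each form and 3 by the deposited rates, and these gave tnpo3-/- embryos 1. The difference in skipping over all member reads was −0.0279 points in snapc3-/- embryos, and 0.00821 as a median over exons, 0.0385 without the rps24 exon and 0.0403 without rpl9 too. In lsm8-/- embryos −0.0184 became −0.0401 over shared exons, 0.00399 as a median, 0.0049 without rps24 and 0.00433 without both. In tnpo3-/- embryos 0.037 became 0.0114 over shared exons and 0.0622 without rps24. The share of reads in members differed by −1.64 points over shared exons in snapc3-/- embryos. Direct fits called 38 genes between lsm8-/- and snapc3-/- and 3 between tnpo3-/- and snapc3-/- embryos under median-of-ratios scaling, instead of 25 and 19. The causes were not tested.

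Leaving out each library in turn gave 2 to 4 genes, 5 to 12 exons and 0 to 0 introns in snapc3-/- embryos (2 genes without the control in position 2 or 3 or any snapc3-/- library), with differences of −0.0467 to −0.0107 points in skipping and −1.44 to −1.10 in reads. In lsm8-/- embryos it gave 44 to 51 genes, 7 to 12 exons, 0 to 0 introns, −0.0233 to −0.0135 and −4.38 to −4.05 points, and in tnpo3-/- embryos 0 to 1 genes, 19 to 26 exons, 0 to 0 introns, 0.0262 to 0.0548 and 0.319 to 0.993 points. For single genes and exons, each result was counted once for each alternative setting, so a gene or exon enters many times. Of these pairs 639 were the same as in the main fit, 44 lost a call, 7 gained a call and 9 uncalled values moved. With 3 libraries a group, a background tied to each mutant and rare reads of 1 form, single exon calls are uncertain. Of the exons called with lower inclusion, 8 of 8 in snapc3-/-, 3 of 11 in lsm8-/- and 23 of 29 in tnpo3-/- embryos had 20 reads of each form. The 20-read fit called 2, 3 and 21 of them.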

Other observations

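Skipping of 3 exons, chosen after their values were seen, was present in 1 control library and at or near 0 in the other controls. The 74 bp exon of rpl12 at chr5:34501734-34501807 (Zv9) had 331, 0 and 0 skipping reads in the controls, 366, 289 and 250 in snapc3-/-, 1, 2 and 1 in lsm8-/- and 0, 0 and 2 in tnpo3-/- embryos. The 141 bp exon of rpl7a at chr5:34903120-34903260 had 0, 91 and 0 in the controls, 0, 4 and 1 in snapc3-/-, 0, 0 and 2 in lsm8-/- and 104, 109 and 81 in tnpo3-/- embryos. The 64 bp exon of rps21 at chr23:9330945-9331008 had 28, 0 and 0 in the controls, 32, 21 and 24 in snapc3-/-, 4, 0 and 0 in lsm8-/- and 8, 56 and 51 in tnpo3-/- embryos. None was called against the controls (limma, adjusted p = 0.54 for rpl12 and 0.284 for rps21 in snapc3-/- and 0.338 for rpl7a in tnpo3-/- embryos). For rpl12 and rpl7a the share of skipping in that control, 1.99% and 0.451%, was near the 1.89%, 1.88% and 1.67% of snapc3-/- and the 0.494%, 0.487% and 0.475% of tnpo3-/- libraries.

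The controls are 1 library of each mixed background and every mutant has 1 background, but no source used here says which position holds which background, and the part of background in these skips was not tested. Leaving out these exons, each high in 1 control, must bring the controls closer to each other. Per 1000000 junction reads of the members they were 143, 138 and 135 in the snapc3 table, where mutants had 447, 362 and 494. For tnpo3 they were 94.3, 92.3 and 88.1 against 440, 487 and 463. Since the exons were left out after their values were seen, these rates carry no test.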
